A study of Mus musculus with 6 samples.

Results

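The genes of elastic fibres and of the lysyl oxidases were followed in RNA-seq of primary articular chondrocytes, the only resident cells of joint cartilage. The 10 genes were chosen by symbol among the 24346 in the deposited table, and all 10 were present: the lysyl oxidase genes Lox, Loxl1, Loxl2, Loxl3 and Loxl4, the fibrillin genes Fbn1 and Fbn2, the elastin gene Eln, the fibulin gene Fbln5 and the microfibril-associated gene Mfap5. The cells came from cartilage of ICR mice at postnatal day 4, and 3 libraries were from cells stimulated with semaphorin 4D (Sema4D), a ligand of plexin-B receptors, and 3 from unstimulated control cells. The sources used here give neither dose nor duration nor control medium. They also do not say if replicates were distinct cultures or animals, so a p-value covers only library-to-library spread, possibly technical. Levels are FPKM, fragments normalised for transcript length and library size, so levels of different genes can be set side by side.

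Elastic fibres consist of an elastin core laid down on a scaffold of fibrillin microfibrils. Fibulins and microfibril-associated glycoproteins help to place tropoelastin, the soluble precursor, on that scaffold. Lysyl oxidases are secreted copper enzymes that oxidise lysine side chains of tropoelastin and fibrillar collagens, from which the covalent cross-links of the matrix form. In hyaline cartilage such as that of joints, collagen is the main substrate and fibrillin microfibrils lie around the chondrocytes, whereas a dense elastin network is a feature of elastic cartilage such as that of the ear.

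The 10 genes did not change as a block. With Sema4D, Fbn1, Loxl2, Loxl4 and, by a narrow margin, Lox were higher, while Fbn2, Loxl3, Eln, Fbln5 and, by a narrow margin, Loxl1 were lower, and Mfap5 did not pass the test. The changes were modest: on the log2(FPKM + 1) scale they ran from -0.49 for Fbn2 to 0.57 for Fbn1, and none reached 2-fold. All 10 genes averaged 1 FPKM or more, the limit for testing, and 9 of 10 passed an adjusted p under 0.05 in limma, which was fitted over 11603 genes and called 46.7% of them, 24.5% as higher and 22.2% as lower. The 2 groups of libraries did not overlap for 8 of the 10 genes and for 56.6% of all genes tested. The median log2 difference was -0.10 over the 10 genes and 0.01 over all genes tested. These calls were common in the data set, and the share called among the 10 genes is read only against that background. It is a description and not a test, because the 10 genes were chosen with earlier results of these data known. All except Mfap5 also stood at 21.1 FPKM or more in every library, while the background reached down to a mean of 1 FPKM.

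**Figure D1:**
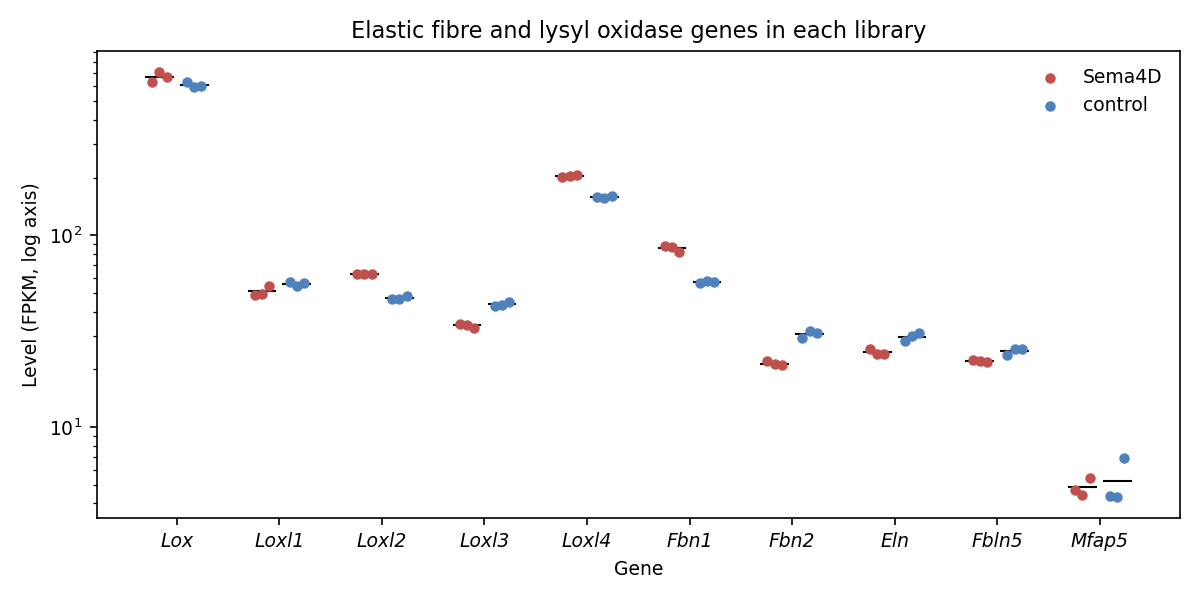
Level of each gene in FPKM on a log axis, with 1 point per library, Sema4D left of control for each gene, and a black line at each group's mean. Lox stood above all others at 632 to 710 FPKM with Sema4D and 594 to 626 FPKM in control, and Mfap5 below all others at 4.43 to 5.43 FPKM with Sema4D and 4.34 to 6.91 FPKM in control.

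Depth, read from the whole-fragment steps among low levels, was about 1.41e+07 to 1.67e+07 fragments in Sema4D libraries and 1.25e+07 to 1.62e+07 in control libraries. The FPKM of all symbols summed to 518900 to 527490 in Sema4D libraries and 492710 to 494120 in control libraries, without overlap. The part of this offset in the levels and sums below was not tested. For the differences, median ratio and quantile scaling were run as alternatives, and they gave 0.13 and -0.06 for Lox on the log2 scale. Neither divides by these totals. The chondrocyte markers Col2a1, Acan, Sox9, Comp, Matn1, Matn3, Hapln1 and Col9a1 were above 1 FPKM in every library, 8 of 8, and their summed level was 10446 to 11317 FPKM with Sema4D and 12919 to 13974 FPKM in control, with all 8 lower. Summed fibroblast and tendon markers stood at 562 to 578 FPKM with Sema4D and 448 to 477 FPKM in control, with 2 of 7 tested members higher and 4 lower. Dcn made up most of that sum, at 357 ± 5.98 FPKM with Sema4D and 249 ± 8.74 FPKM in control. Dcn and Pdgfra were the higher members, and Thy1, Dpt, Scx and Tnmd the lower. Summed smooth muscle markers were 117 to 122 FPKM with Sema4D and 116 to 124 FPKM in control, with 1 of 3 tested members higher and 2 lower, and 4 lower with no filter on low values. Of these markers Acta2, the smooth muscle actin gene, was higher, at 60.6 ± 1.49 FPKM with Sema4D and 33.2 ± 1.55 FPKM in control, and the untested Myh11, the smooth muscle myosin gene, was at 0.113 to 0.121 FPKM with Sema4D and 0.301 to 0.465 FPKM in control. Summed macrophage markers were 19.6 to 22.0 FPKM with Sema4D and 22.9 to 30.4 FPKM in control, with 2 of 3 tested members lower. Lyz2 made up most of that sum, at 15.9 ± 1.27 FPKM with Sema4D and 22.4 ± 3.55 FPKM in control, while the untested macrophage marker Adgre1 was at 0.563 to 0.750 FPKM with Sema4D and 0.0784 to 0.268 FPKM in control. Tyrobp, 1 of the 2 lower members, was at 0.315 to 0.846 FPKM with Sema4D and 1.26 to 2.44 FPKM in control. It reached the limit for testing only through its control libraries, so the limit itself bears on the count of lower macrophage markers. With no filter on low values 1 of the 6 macrophage markers was higher and 0 lower, and 1 was lower at a mean of at least 5 FPKM or without control replicate 2. The 5 endothelial markers summed to 0.131 to 0.307 FPKM with Sema4D and 0.0652 to 0.226 FPKM in control, and 4 of them were listed at 0 in at least 1 library. These counts of markers stand beside 24.5% of all genes tested called higher and 22.2% called lower. Fewer cells of a type and less RNA per cell cannot be told apart in such bulk samples, and the part of the shifts in chondrocyte, fibroblast, muscle and macrophage markers in the results below was not tested.

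Lox, the founding lysyl oxidase, was the most abundant of the 10 genes and ranked between 125 and 139 among the 24346 symbols in each library. It was at 632, 710 and 668 FPKM in Sema4D replicates 1, 2 and 3, against 626, 594 and 599 FPKM in control replicates 1, 2 and 3. The groups did not overlap, but Sema4D replicate 1 and control replicate 1 lay close together. Set against each library's total FPKM, Sema4D replicate 1 lay below control replicate 1, so the groups then overlapped. The log2 difference of the deposited levels was 0.14 (SE 0.043, limma adjusted p = 0.0264). This rise did not hold throughout: after quantile normalization the difference was -0.06 (adjusted p = 0.349), and the adjusted p was 0.0719 and 0.059 without Sema4D replicate 2 or 3, 0.0827 and 0.0778 without control replicate 2 or 3, 0.149 with no filter on low values and 0.0521 with a replicate block, where the 12 alternatives ran from 0.00801 to 0.349.

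Loxl1 (chromosome 9, 58287723 to 58313212 in mm10), the closest relative of Lox in domain layout and an enzyme needed for elastic fibre upkeep in adult mice, was at 49.0, 49.3 and 54.5 FPKM in the Sema4D libraries, against 57.1, 54.3 and 56.5 FPKM in the control libraries. Sema4D replicate 3 lay above control replicate 2, so the groups overlapped. The log2 difference was -0.13 (SE 0.046, limma adjusted p = 0.0424). The adjusted p was 0.133 and 0.125 without Sema4D replicate 1 or 2, 0.114 and 0.105 without control replicate 1 or 3, and 0.168 with no filter on low values, where the 12 alternatives ran from 0.00541 to 0.168.

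Loxl2, Loxl3 and Loxl4 form the second branch of the family, whose proteins carry scavenger receptor cysteine-rich domains ahead of the catalytic domain. They moved in different directions. Loxl4 (chromosome 19, 42592279 to 42612806) was the second most abundant of the 10 genes, at 202, 203 and 205 FPKM in the Sema4D libraries and 158, 156 and 160 FPKM in the control libraries. Every Sema4D library lay above every control library, and the log2 difference was 0.37 (SE 0.024, limma adjusted p = 5.78e-06). Loxl2 (chromosome 14, 69608692 to 69695834), which is known to act on type IV collagen of basement membranes, was at 62.5, 62.8 and 63.2 FPKM with Sema4D and 46.8, 46.6 and 48.3 FPKM in control. The groups were again apart, with a log2 difference of 0.40 (SE 0.029, adjusted p = 8.2e-06). Loxl3 (chromosome 6, 83034205 to 83052566), which mice need for development of the palate and spine, went the other way, at 34.7, 34.2 and 33.0 FPKM with Sema4D and 42.6, 43.6 and 44.8 FPKM in control. Its 3 Sema4D libraries were all lower, with a log2 difference of -0.35 (SE 0.035, adjusted p = 6.09e-05). Exons of Loxl3 overlap those of the mitochondrial protease gene Htra2 on the opposite strand by up to 369 bases, and the sources used here do not state a strand setting. Htra2 was at 28.1 ± 1.53 FPKM with Sema4D and 26.4 ± 1.48 FPKM in control (SD, n = 3 each; log2 difference 0.08, limma adjusted p = 0.229).

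The 5 lysyl oxidase genes summed to 981, 1059 and 1024 FPKM in the Sema4D libraries, against 931, 894 and 908 FPKM in the control libraries, with no overlap (exact permutation test, two-sided, p = 0.1, the smallest that 3 libraries against 3 can give). These sums were not corrected for the higher total FPKM of the Sema4D libraries. Sema4D replicate 1 totalled 527490 FPKM and control replicate 1 totalled 494120 FPKM. Set against those totals, the sum of Sema4D replicate 1 lay below that of control replicate 1, so the groups then overlapped. Lox supplied 65.6% ± 1.30 of the summed lysyl oxidase FPKM with Sema4D and 66.5% ± 0.670 in control (mean ± SD, n = 3 each), and the groups overlapped (exact permutation p = 0.3). Loxl4 supplied 19.9% ± 0.726 with Sema4D and 17.3% ± 0.303 in control, and Loxl2 supplied 6.16% ± 0.221 with Sema4D and 5.19% ± 0.149 in control. The shares of Loxl1, 4.99% ± 0.338 with Sema4D and 6.14% ± 0.0715 in control, and of Loxl3, 3.33% ± 0.177 with Sema4D and 4.80% ± 0.194 in control, were smaller with Sema4D. For each of these 4 enzymes the groups did not overlap, at the smallest exact permutation p of 0.1. Shares within a library do not depend on its scaling, but a share also moves when another enzyme does. Over the 12 comparisons of shares, ratios and sums the adjusted exact permutation p was 0.12 for the 10 at the smallest p and 0.3 for the other 2, so none could pass 0.05.

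**Figure D2:**
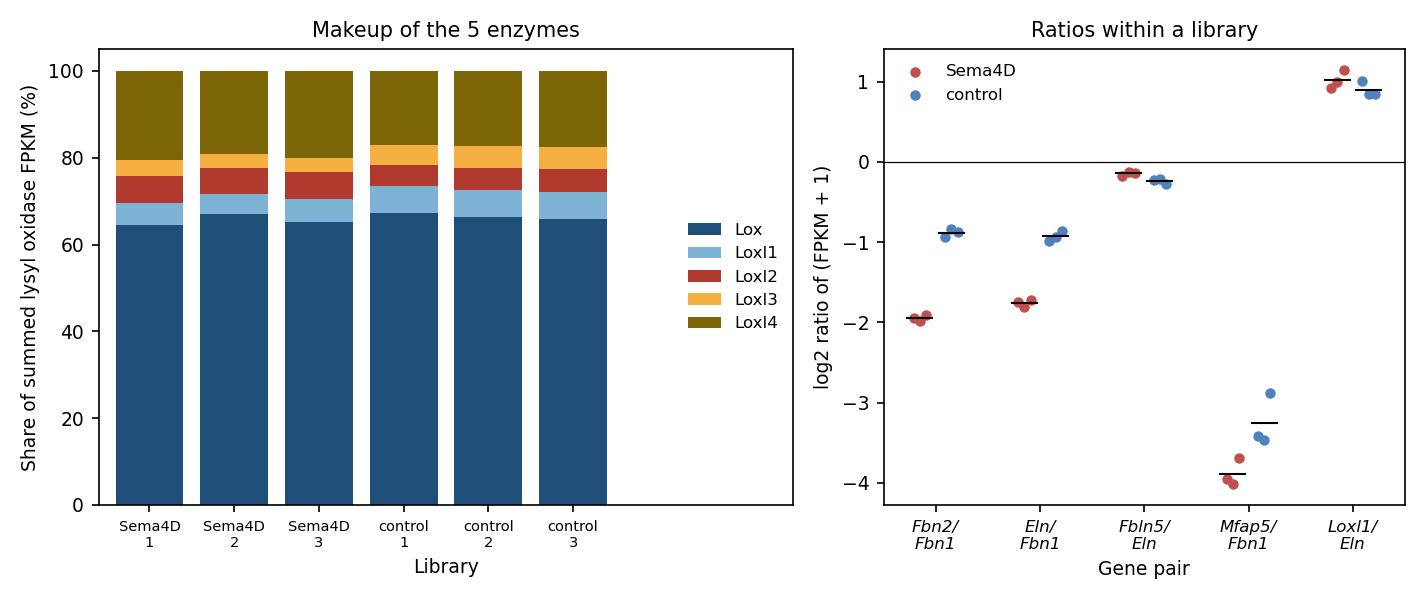
Left, each library's summed FPKM of the 5 lysyl oxidase genes divided into the share of each enzyme in percent, Sema4D libraries before control libraries. Right, log2 ratios of (FPKM + 1) of gene pairs within each library, 1 point per library with a line at the mean, where Fbn2/Fbn1 and Eln/Fbn1 show the widest gaps between the groups, with means of -1.94 in Sema4D and -0.88 in control libraries for the first and -1.76 in Sema4D and -0.93 in control libraries for the second.

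Fibrillin genes moved in opposite directions. Fbn1 (chromosome 2, 125300594 to 125506485), which encodes the main fibrillin of postnatal microfibrils and is mutated in Marfan syndrome, was at 87.6, 86.7 and 81.8 FPKM in the Sema4D libraries and 56.5, 57.8 and 57.2 FPKM in the control libraries. All Sema4D libraries were higher, by 1.49-fold in the ratio of means and 0.57 on the log2 scale (SE 0.034, limma adjusted p = 2.77e-06). Fbn2, whose product is a fibrillin of embryonic and early microfibrils, was at 22.0, 21.2 and 21.1 FPKM with Sema4D and 29.2, 31.9 and 30.9 FPKM in control. All Sema4D libraries were lower, with a log2 difference of -0.49 (SE 0.041, adjusted p = 2.32e-05). These were the largest rise and the largest fall of the 10 genes, yet 27.7% of all genes called higher rose by more than Fbn1 and 23.8% of all genes called lower fell by more than Fbn2. Within a library the log2 ratio of Fbn2 to Fbn1 was -1.94 ± 0.0379 with Sema4D and -0.88 ± 0.0473 in control, a difference of -1.06 (exact permutation p = 0.1). Both fibrillin genes together stood at 103 to 110 FPKM with Sema4D and 85.7 to 89.7 FPKM in control. Up to 2442 bases of Fbn1 exons overlap the predicted gene Gm9913 on the opposite strand, and reads of the 2 genes cannot be told apart without the strand setting. Exons of Loxl2, Eln, Fbn2 and Lox also overlap opposite-strand genes, by up to 244, 212, 129 and 30 bases. Neither Gm9913 nor those opposite-strand genes are among the deposited symbols, so their levels could not be read.

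Sequence ahead of an annotated start was at hand for 3 of the 10 genes, and is shown for Loxl4 and Fbn1, which rose, and for Fbln5, which fell, because these are the members whose upstream letters can be set beside their changes. Each run is the 250 bases before a start annotated by RefSeq on GRCm38.p6, the assembly of mm10, read on the gene's own strand from 5′ to 3′, at chr19:42612807-42613056, chr2:125506439-125506688 and chr12:101819120-101819369, all on the minus strand. The listed span of Fbn1 reaches 125506485, past the near end of its window, so the bases of that window nearest the start lie inside the gene. Capitals mark matches on either strand to 5 motifs: the NF-kappaB motif (GGGA, any 4 bases, then CC), AP-1 TGANTCA, the hypoxia response core ACGTG, the TATA box TATAAA and the GC box GGGCGG.
Loxl4: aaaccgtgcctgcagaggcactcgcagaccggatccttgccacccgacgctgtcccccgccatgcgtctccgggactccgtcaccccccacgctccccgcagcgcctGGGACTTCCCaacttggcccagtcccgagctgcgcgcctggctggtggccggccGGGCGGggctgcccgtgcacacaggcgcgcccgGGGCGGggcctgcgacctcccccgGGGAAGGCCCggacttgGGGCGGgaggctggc
Fbn1: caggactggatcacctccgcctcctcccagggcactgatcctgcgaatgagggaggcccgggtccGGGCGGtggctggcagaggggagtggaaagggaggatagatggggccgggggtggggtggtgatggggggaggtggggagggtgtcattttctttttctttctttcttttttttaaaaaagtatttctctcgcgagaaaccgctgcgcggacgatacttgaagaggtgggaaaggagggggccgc
Fbln5: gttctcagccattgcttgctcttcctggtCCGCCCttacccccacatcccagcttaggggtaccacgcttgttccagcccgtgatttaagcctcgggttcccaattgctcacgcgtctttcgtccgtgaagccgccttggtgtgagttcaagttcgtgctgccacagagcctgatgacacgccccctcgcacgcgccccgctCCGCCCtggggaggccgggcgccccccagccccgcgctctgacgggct
The Loxl4 window held 2 matches to the NF-kappaB motif, GGGACTTCCC beginning at -143 and GGGAAGGCCC beginning at -32, counted so that -1 is the base before the start, and 3 GC boxes. The windows of Fbn1 and Fbln5 held GC boxes, 1 at -185 in Fbn1 and 2 in Fbln5, and no match to the other 4 motifs. Fbln5 has a second annotated start, whose window at chr12:101818485-101818734, not shown, held no match to any of the 5 motifs. Among all 32851 windows of that length, 17.6% held the NF-kappaB motif and 2.79% held it at 2 or more places, against 32.9% and 6.29% of the 3037 windows with at least 70% G and C, as the Loxl4 window has with 76.0%. The GC box stood in 32.7% of all windows and in 89.6% of those rich in G and C, of which 70.1% held it at 2 or more places. The AP-1 motif stood in 6.75% of all and 1.55% of the GC-rich windows, the hypoxia core in 16.6% and 21.2%, and the TATA box in 12.4% and 1.35%, in the same order. A match is a description of letters, not a bound site.

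Eln, the elastin gene (chromosome 5, 134702595 to 134747368), was at 25.4, 24.1 and 24.1 FPKM in the Sema4D libraries and 28.0, 29.8 and 31.0 FPKM in the control libraries. The Sema4D libraries were all lower, with a log2 difference of -0.26 (SE 0.045, limma adjusted p = 0.00176). Fbln5 (chromosome 12, 101746565 to 101819119), whose product binds tropoelastin, integrins and Loxl1 and is needed for elastic fibre assembly in mice, was at 22.5, 22.1 and 21.9 FPKM with Sema4D and 23.9, 25.6 and 25.4 FPKM in control. The groups did not overlap, although Sema4D replicate 1 and control replicate 1 lay near each other, and the log2 difference was -0.17 (SE 0.038, adjusted p = 0.00783). The within-library log2 ratio of Fbln5 to Eln was -0.14 ± 0.0234 with Sema4D and -0.24 ± 0.0350 in control, without overlap (exact permutation p = 0.1), and that of Loxl1 to Eln was 1.02 ± 0.114 with Sema4D and 0.90 ± 0.0937 in control, with overlap (exact permutation p = 0.3). The ratio of Eln to Fbn1 differed by more, at -1.76 ± 0.0414 with Sema4D and -0.93 ± 0.0639 in control, a log2 difference of -0.83 (exact permutation p = 0.1). Each of these ratios moves with either of its genes.

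Mfap5 (chromosome 6, 122513584 to 122529290), also called MAGP-2, encodes a small glycoprotein that binds fibrillin microfibrils. It was the least abundant of the 10 genes, at 4.73, 4.43 and 5.43 FPKM in the Sema4D libraries and 4.38, 4.34 and 6.91 FPKM in the control libraries. The groups overlapped, and control replicate 3 was the highest library. The log2 difference was -0.06 with a 95% interval from -0.40 to 0.28 (limma adjusted p = 0.757), and 0.12 without control replicate 3 (adjusted p = 0.273). At the estimated depth, and on its longest coding transcript of 1506 nucleotides, these levels correspond to about 103 to 118 fragments per Sema4D library and 82 to 161 per control library, far fewer than for the other 9 genes, whose lowest was 1309 fragments, and a change within that interval was not detectable in these libraries. Its log2 ratio to Fbn1 was -3.88 ± 0.174 with Sema4D and -3.25 ± 0.324 in control, without overlap (exact permutation p = 0.1). That ratio also moves with Fbn1, which differed by 0.57, against -0.06 for Mfap5. The gap therefore does not show a change in Mfap5 itself.

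**Figure D3:**
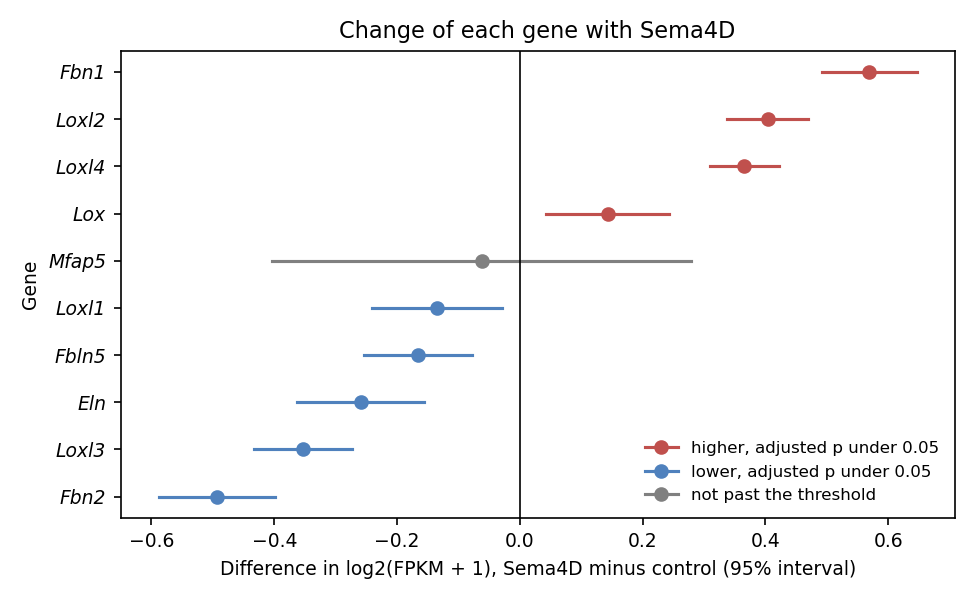
Difference in log2(FPKM + 1) of each gene, Sema4D minus control, as a point with its 95% interval from limma, ordered from the largest rise at the top to the largest fall. The intervals of the 4 rises and 5 falls lie clear of 0, and that of Mfap5, from -0.40 to 0.28, spans it.

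The order of levels was alike at its ends in both groups and shifted in its middle. With Sema4D the order of mean FPKM was Lox, Loxl4, Fbn1, Loxl2, Loxl1, Loxl3, Eln, Fbln5, Fbn2 and Mfap5. Of neighbours in that order, the libraries of Fbln5 (22.1 FPKM) and Fbn2 (21.5 FPKM) overlapped and all other neighbours were apart. In control the order was Lox, Loxl4, Fbn1, Loxl1, Loxl2, Loxl3, Fbn2, Eln, Fbln5 and Mfap5, where Fbn1 (57.2 FPKM) overlapped Loxl1 (56.0 FPKM) and Fbn2 (30.6 FPKM) overlapped Eln (29.6 FPKM). Fbn2 thus stood ninth with Sema4D and seventh in control, and Loxl2 stood above Loxl1 with Sema4D and below it in control.

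Among the 11603 genes tested, profiles most like that of Fbn1 were those of Plekhm3, Ece1, which encodes an endothelin-converting enzyme, and Lpgat1, with distances of 0.0499, 0.0606 and 0.0618 between log2(FPKM + 1) values over the 6 libraries, each gene centred on its own mean. Plekhm3 was at 2.96 ± 0.0979 FPKM with Sema4D and 1.73 ± 0.0138 FPKM in control, so low that the added 1 makes its change look smaller. Lpgat1 was at 24.5 ± 0.494 FPKM with Sema4D and 16.3 ± 0.187 FPKM in control. The profiles nearest to Fbn2 were those of Klf4, a zinc-finger transcription factor gene, Tiam2, which encodes an exchange factor for Rac, and the proteoglycan gene Cspg4, with distances of 0.0450, 0.0540 and 0.0541. Klf4 was at 34.6 ± 0.229 FPKM with Sema4D and 49.2 ± 1.73 FPKM in control.

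Other genes of microfibril and elastic fibre assembly also divided. Of 17 listed, 16 were tested, and 7 were higher, 5 lower and 4 not past the threshold (median log2 difference -0.01, against 0.01 over all genes tested). Over all genes tested, 24.5% were called higher and 22.2% lower. The 7 higher became 5 with no filter on low values, or without Sema4D replicate 1, Sema4D replicate 3 or control replicate 1. The 5 lower became 4 at a mean of at least 5 FPKM. They became 6 with no filter, with quantile normalization or without Sema4D replicate 3. Ltbp2, a latent TGF-beta binding protein that attaches to fibrillin-1 microfibrils, was at 97.7, 101 and 96.2 FPKM with Sema4D and 33.6, 35.5 and 36.5 FPKM in control, the one change above 2-fold among the 16 tested (log2 difference 1.46, limma adjusted p = 2.04e-08). The untested gene was Adamtsl2, whose product binds fibrillin-1 and which was under the limit at 0.677, 0.314 and 0.238 FPKM with Sema4D and 1.46, 1.43 and 1.12 FPKM in control, without overlap. Vcan, which encodes the microfibril-binding proteoglycan versican, was higher by 0.71 and Emilin2, of the elastin microfibril interface family, by 0.56. Among partners named after their values were seen, Mfap2, the MAGP-1 gene related to Mfap5, was lower by 0.78, at 4.36 ± 0.633 FPKM with Sema4D and 8.13 ± 0.196 FPKM in control. Efemp2, the gene of fibulin-4, which guides Lox to tropoelastin, was abundant at 289 ± 4.41 FPKM with Sema4D and 287 ± 6.98 FPKM in control, with a log2 difference of 0.01 and a 95% interval from -0.05 to 0.07 (limma adjusted p = 0.811). Its relative Efemp1 was lower, at 9.03 ± 0.246 FPKM with Sema4D and 13.6 ± 0.327 FPKM in control (log2 difference -0.54).

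Genes that process lysyl oxidases or supply their copper were mixed too. Of 12 listed, 11 were tested, with 4 higher, 4 lower and 3 not past the threshold (median log2 difference 0.09). The shares over all genes tested were 24.5% higher and 22.2% lower. Bmp1, whose protease removes the propeptide of Lox, was lower by a small amount, at 38.0 ± 1.29 FPKM with Sema4D and 41.2 ± 1.31 FPKM in control (log2 difference -0.11, limma adjusted p = 0.0388; named after its values were seen). Pcolce2, an enhancer of that protease on procollagen, was lower by 0.74 on the log2 scale, at 47.2, 46.9 and 49.0 FPKM with Sema4D and 79.7, 79.7 and 81.3 FPKM in control. Atp7a, the copper pump that loads secreted enzymes, was higher, at 7.17 ± 0.368 FPKM with Sema4D and 4.89 ± 0.339 FPKM in control (0.47), as was Postn, a matricellular protein that aids Lox activation (log2 difference 0.29). The 4 lower genes of this list became 2 without Sema4D replicate 2, control replicate 2 or control replicate 3, and 2 with no filter on low values or with a replicate block.

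Of 8 listed elastin-degrading proteases, 5 were tested, and 4 were higher, 0 lower and 1 not past the threshold (median log2 difference 0.34), where 24.5% of all genes tested were called higher. Mmp9, the larger gelatinase, was at 2.66, 1.91 and 2.59 FPKM with Sema4D and 0.0499, 0.116 and 0.0803 FPKM in control (log2 difference 1.64), and it reached the limit for testing only through its Sema4D libraries, so the limit itself bears on this count. Ctsk, the collagen- and elastin-cleaving cathepsin K, was at 67.5 ± 1.27 FPKM with Sema4D and 53.0 ± 0.774 FPKM in control (0.34), and the gelatinase gene Mmp2 at 132 ± 5.17 FPKM with Sema4D and 97.9 ± 2.97 FPKM in control (0.43). Of the 3 under the limit for testing, the macrophage elastase gene Mmp12, named after its values were seen, was at 1.18, 1.05 and 1.22 FPKM with Sema4D and 0.152, 0.168 and 0.0700 FPKM in control, Ctss, the cathepsin S gene, was at 0.582, 0.676 and 0.746 FPKM with Sema4D and 0.969, 0.797 and 0.832 FPKM in control, and Mmp7 was listed at 0 in all 6 libraries. Neither Mmp12 nor Ctss overlapped between the groups, and their values lay in opposite directions.

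Of the 9 genes of fibrillar collagens, the other substrates of lysyl oxidases, 2 were higher, 5 lower and 2 not past the threshold (median log2 difference -0.17). Among all genes tested, 24.5% were called higher and 22.2% lower. Col5a3, a minor chain of type V collagen, was at 57.8 ± 3.85 FPKM with Sema4D and 11.5 ± 1.28 FPKM in control (log2 difference 2.23, limma adjusted p = 9.74e-08). Col11a1, a chain of cartilage type XI collagen, was lower by 0.41 and Col1a2, a chain of type I collagen, by 0.32 on the log2 scale.

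**Figure D4:**
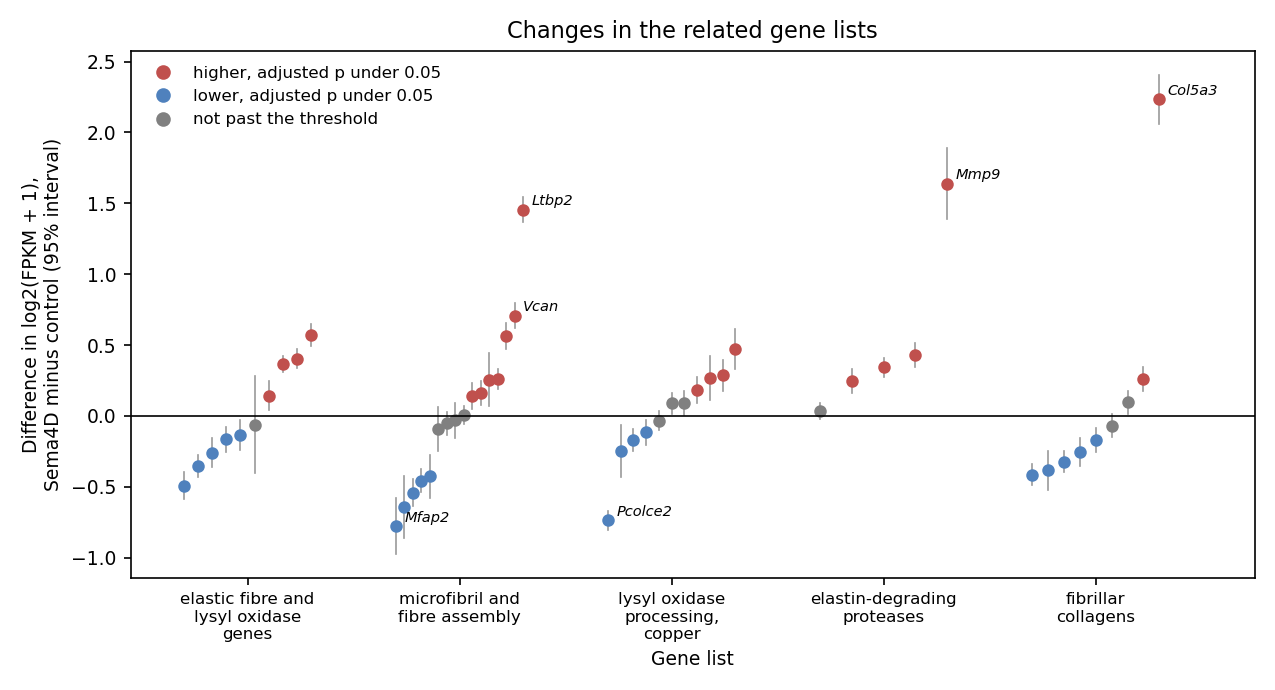
Difference in log2(FPKM + 1), Sema4D minus control, for every tested gene of 5 lists, with 95% intervals from limma and colours for genes higher, lower or not past an adjusted p of 0.05. Each list except the elastin-degrading proteases holds genes on both sides of 0 that passed, and Ltbp2, Mmp9 and Col5a3 stand above 1.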

How the data were processed

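RNA-seq covered 3 Sema4D and 3 control libraries of chondrocytes, grouped by their titles. The deposited values are FPKM, 1 column per library, which the authors made on mm10. The submitters' processing notes name Cufflinks 2.2.1, TopHat2 2.0.13, SAMtools 0.1.19 and Bowtie2 2.2.3 without saying what each did. The sources used here state no annotation, strand setting or scaling between libraries.

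Values were taken as deposited, since FPKM are not counts, and fitted as log2(FPKM + 1) with limma 3.58.1 in R 4.3.3 (trend, two-sided, Benjamini-Hochberg adjustment, threshold 0.05) over 11603 of 24346 symbols with a mean of at least 1 FPKM. Fold changes on that scale understate changes of low genes. Single shares, sums and ratios were tested by exact permutation over libraries with scipy 1.17.1. The fit was tested on simulated data. Depth was estimated from 1681 genes with 1 transcript over 2000 nucleotides: the share of low values no more than 0.15 from a whole fragment was 76.3% to 83.7%, too few to recover counts. Identical values in 2 libraries made up 0.112% to 0.293% of tested genes, so all 6 libraries were counted. Lengths came from GENCODE M21, and gene positions and upstream sequences from RefSeq.

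Members and lists were chosen with earlier results of these data known. From each of 4 related lists the 3 genes with the smallest p and any over 2-fold were eligible for naming, and the 3 nearest profiles of the largest rise and fall. Alternatives were another pseudocount (0.1), other filters, quantile or median ratio scaling, a replicate block and each library left out.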

Additional observations from a re-analysis of the deposited data

How the results depend on the processing

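Over 12 alternatives per gene, 107 of 120 values for the 10 genes kept their direction and their side of the threshold, including all 12 for each of Fbn1, Fbn2, Loxl2, Loxl3, Loxl4, Eln and Fbln5. Lox was 0.14 without the filter (adjusted p = 0.149) and with a replicate block (0.0521), and reversed to -0.057 after quantile normalization (0.349). Loxl1 was -0.13 with no filter (0.168). With each library left out in turn, Lox ranged over 0.10 to 0.18, Loxl1 over -0.18 to -0.11 and Mfap5 over -0.16 to 0.12, so that Mfap5 changed sign. The cause was not tested. With Lox left out of the sum, the differences in share were -3.87 percentage points for Loxl1, 2.38 for Loxl2, -4.66 for Loxl3 and 6.16 for Loxl4, larger because the sum is smaller. Counts of the 10 genes ran from 3 to 4 higher and 4 to 5 lower. Of the 10 genes, 4 were among 2841 higher and 5 among 2581 lower, and 52.4% of all calls were higher, against 38.8% after quantile normalization (2167 higher and 3415 lower). Of same-numbered libraries, those numbered 1 deviated together (correlation across genes 0.140, the highest of the 9 pairings). Those numbered 2 and 3 did not (-0.0809 and -0.0544). The labels state no pairing, and the numbers were not taken as pairs. Across numbers, Sema4D replicate 3 deviated with control replicate 2 (0.136), and Sema4D replicate 2 with control replicate 3 (0.103). All remaining pairings were negative. Deviations were taken from each group's own mean, which forces pairings of both signs, so the signs alone cannot decide on pairs. The replicate block follows the numbers, and the source of the higher correlations was not tested. With the replicate block 2638 genes were higher and 2356 lower. Among the 10 genes, depth was lowest for Mfap5, at an estimated 82 to 161 fragments per library.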
